A study of Mus musculus with 2 samples.

Results

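The cluster of miR-182, miR-183 and miR-96 was examined in the microRNA (miRNA) content of vesicles isolated from mouse serum, the membrane-bound particles (EVs) by which cells pass RNA into the circulation. Its members were taken by name, as both arms of the 3 hairpins Mir183, Mir96 and Mir182, and all 6 arms were listed in both deposited tables, among 1847 miRNAs in all. One library came from control mice and 1 from iFIRKO mice, which carry Adipoq-CreERT2 and Insr flox/flox, so that tamoxifen deletes the insulin receptor gene Insr in adipocytes, where the Adipoq promoter drives Cre. All mice were male, 7 weeks old at the start, were given tamoxifen at 100 mg/kg once on each of 5 days, and serum was taken on day 3 after the final dose. Controls are labelled WT, whereas the study's methods describe them as flox/flox mice without Cre, and each library was made from serum pooled over several mice. A genotype is thus represented by a single library, without replicates, so the differences below were not tested, and all intervals are 95% intervals that cover counting error only. The tables hold miRNAs only, and none of them reports on loss of Insr. In such bulk samples vesicles coming in smaller number from a cell type cannot be told apart from less of a miRNA in each vesicle.

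The 3 hairpins are processed from a single primary transcript, a polycistron, from which Drosha and Dicer cut a duplex of a 5p and a 3p arm per hairpin. One arm of a duplex, the guide, is usually loaded into an Argonaute protein and pairs through its seed (bases 2 to 8) with target mRNAs, while the other, the passenger, is mostly degraded. The cluster is best known from sensory cells, including photoreceptors, hair cells of the inner ear and olfactory neurons, and changes in the seed of miR-96 cause progressive hearing loss in mice and humans. It is also expressed in other epithelia and in activated lymphocytes, and miR-182 and miR-96 have been described as repressors of the transcription factors Foxo1 and Foxo3, which insulin signalling restrains.

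The mature sequences are shown with the seed in capitals, because the 3 guide arms have closely related 5′ ends that set apart what each can pair with (RefSeq, GRCm38.p6).

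mmu-miR-182-5p: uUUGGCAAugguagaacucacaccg

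mmu-miR-96-5p: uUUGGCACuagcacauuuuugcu

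mmu-miR-183-5p: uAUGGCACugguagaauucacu

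mmu-miR-182-3p: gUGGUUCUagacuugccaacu

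mmu-miR-96-3p: cAAUCAUGuguagugccaauau

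mmu-miR-183-3p: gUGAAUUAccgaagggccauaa

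Aligned from the 5′ end without gaps, miR-182-5p and miR-96-5p have the same base at 6 of the 7 seed positions, as do miR-183-5p and miR-96-5p, and miR-182-5p and miR-183-5p at 5 of 7. Over the whole length, seed included, miR-182-5p and miR-183-5p are the closest of the 3, with 18 of 22 positions alike and a shared run of 8 bases (UGGUAGAA) that starts at base 9 of both. miR-96-5p matched them at 12 of 23 and 13 of 22 positions of its whole length. No 3p arm had more than 3 of its 7 seed positions in common with any other member.

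The cluster lies on mouse chromosome 6 on the minus strand, over 3820 bases from 30165918 to 30169737 (GRCm38), in the order Mir183, Mir96, Mir182 along the transcript. Mir96 follows Mir183 after 116 bases, and Mir182 follows Mir96 after 3453 bases. No other gene annotated in GENCODE M21 overlaps a hairpin, so the cluster is intergenic there. The nearest annotated gene is the long noncoding RNA Rncr4 on the opposite strand, 3155 bases away. The protein-coding gene Nrf1 lies 12459 bases away on the other side, with the miscellaneous RNA gene Gm25580 within its bounds at 21790 bases, and Ube2h lies 41551 bases away. The hairpins are printed with both mature arms in capitals, since the share of each arm is compared further on.

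Mir183 (chr6:30169668-30169737, minus strand): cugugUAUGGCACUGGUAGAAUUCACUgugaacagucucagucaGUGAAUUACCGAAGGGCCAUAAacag

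Mir96 (chr6:30169446-30169551, minus strand): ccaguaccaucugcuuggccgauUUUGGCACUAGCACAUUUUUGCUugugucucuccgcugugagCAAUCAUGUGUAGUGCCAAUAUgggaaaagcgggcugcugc

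Mir182 (chr6:30165918-30165992, minus strand): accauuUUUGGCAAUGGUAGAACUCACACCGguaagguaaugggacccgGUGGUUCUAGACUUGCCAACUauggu

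The deposited values are whole counts divided by 1 constant per library, 3817902 for control and 2233498 for iFIRKO, a 1.71-fold difference that was used as the depth. Levels are given as recovered counts and as counts per 1000000 of that depth (CPM). Neither table holds a count from 2 to 9, and 76 and 35 miRNAs stand at a lowest value that was read as under 10 counts, equal to 2.62 CPM in control and 4.48 CPM in iFIRKO. Of 7 miRNAs that mark erythroid, liver, leukocyte or endothelial cells, miR-122-5p of hepatocytes had a ratio of iFIRKO to control of 1.71, and the other 6 had ratios from 0.409 to 0.938. The part of these sources in the values below was not tested.

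The direction of every difference below rests on the deposited labels, and iFIRKO and control stand for the libraries labelled so. Among the markers with the lowest ratios were the erythroid miR-451a at 0.409 and miR-144-3p at 0.506. In the study's text these miRNAs are said to go up in vesicles of iFIRKO mice while the majority go down. With the files as labelled and scaled by the depositors, each of these directions was the opposite. The study also reports both miRNAs as raised by quantitative PCR of individual serum samples, relative to miR-148a-3p or to an added control RNA. If the labels were exchanged, every ratio and odds ratio of iFIRKO to control would be inverted, whereas the order of members within a library would stay. Which direction holds was not tested and cannot be told from the tables.

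All 6 arms were above the lowest value in both libraries, and the cluster as a whole was a minor component of the vesicle miRNAs. The members together had 1081 counts in control, 283 CPM (interval 267 to 301), and 824 counts in iFIRKO, 369 CPM (344 to 395). The 5p arms held 96.2% of these counts in control and 92.8% in iFIRKO.

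mmu-miR-182-5p, the most abundant member, had 522 counts in control (137 CPM, interval 125 to 149) and 371 counts in iFIRKO (166 CPM, interval 150 to 184). It ranked 172 among the 1847 miRNAs in control and 166 in iFIRKO. mmu-miR-183-5p had 464 counts in control (122 CPM, interval 111 to 133) and 343 counts in iFIRKO (154 CPM, interval 138 to 171), at ranks 181 and 175. These guide arms of the outer hairpins thus stood side by side in both libraries. miR-182-5p exceeded miR-183-5p 1.125-fold in control (interval 0.991 to 1.28) and 1.08-fold in iFIRKO (0.931 to 1.26), so their order was within counting error.

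mmu-miR-96-5p, the guide arm of the middle hairpin, was far less abundant, with 54 counts in control (14.1 CPM, interval 10.6 to 18.5) and 51 counts in iFIRKO (22.8 CPM, interval 17.0 to 30.02). miR-183-5p exceeded it 8.59-fold in control (interval 6.47 to 11.6) and 6.73-fold in iFIRKO (5.00 to 9.21). It in turn exceeded the highest 3p arm, miR-183-3p, 3.38-fold in control (1.90 to 6.32) and 2.13-fold in iFIRKO (1.28 to 3.61). The steps from miR-183-5p to miR-96-5p and from miR-96-5p to the 3p arms were therefore larger than counting error in both libraries.

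The 3p arms, the usual passengers, lay close to the lowest countable value. miR-182-3p had 12 counts in control (3.14 CPM) and 21 in iFIRKO (9.40 CPM). miR-183-3p had 16 counts in control (4.19 CPM) and 24 in iFIRKO (10.7 CPM). miR-96-3p had 13 counts in control (3.41 CPM) and 14 in iFIRKO (6.27 CPM). Their order was miR-183-3p, miR-96-3p, miR-182-3p in control and miR-183-3p, miR-182-3p, miR-96-3p in iFIRKO, and every ratio between neighbours had an interval that included 1.

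**Figure D1:**
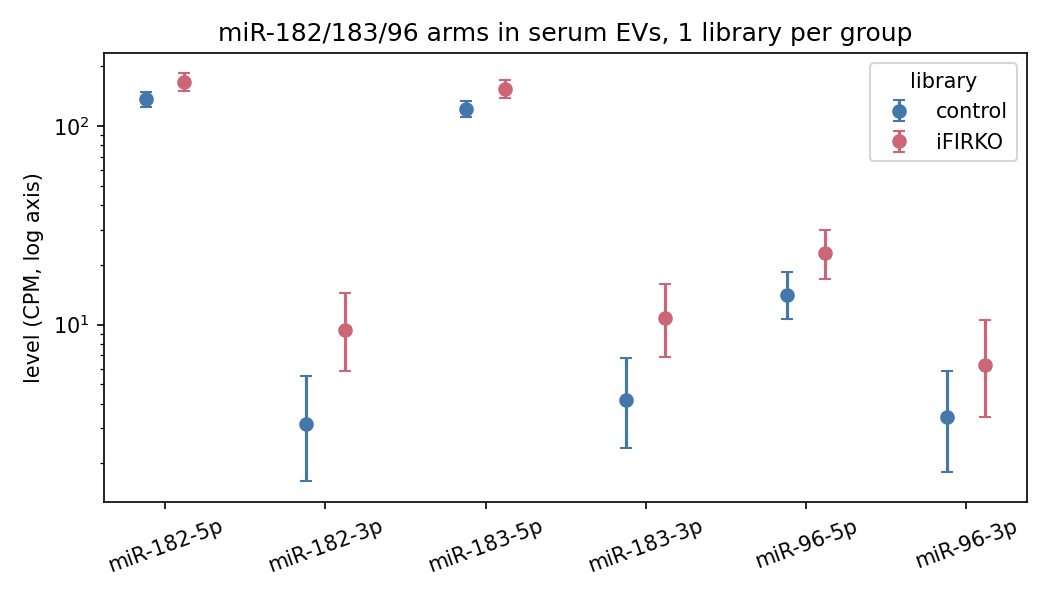
Level of each arm of the cluster in CPM (log axis) in the control library (blue) and the iFIRKO library (red), with exact Poisson 95% intervals of the count. Each point is 1 library. The 5p arms of Mir182 and Mir183 sit between 122 and 166 CPM, miR-96-5p at 14.1 and 22.8 CPM, and the 3p arms between 3.14 and 10.7 CPM.

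On the deposited scale all 6 members had a larger share of the library labelled iFIRKO than of the library labelled control. The excess was small for the abundant guide arms, with a ratio of 1.21 for miR-182-5p (interval 1.06 to 1.39) and 1.26 for miR-183-5p (1.10 to 1.46). miR-96-5p had a ratio of 1.61 (interval 1.08 to 2.41). The 3p arms had the larger ratios with wide intervals, 2.99 for miR-182-3p (interval 1.41 to 6.67), 2.56 for miR-183-3p (1.31 to 5.17) and 1.84 for miR-96-3p (0.803 to 4.25). The interval lay above 1 for 5 of the 6, all but miR-96-3p, and above the 1.5-fold threshold of the study for 0 of the 6.

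Summed over the 6 arms, the ratio was 1.30 (interval 1.19 to 1.43). By hairpin it was 1.25 for Mir182 (interval 1.10 to 1.43), 1.31 for Mir183 (1.14 to 1.5004) and 1.66 for Mir96 (1.16 to 2.37). These intervals overlap one another.

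The ratios of the members resembled those of the library at large. Past 1.5-fold, the library labelled iFIRKO had 4 of the 6 members higher and 0 lower, and over all miRNAs 66.3% were higher and 3.03% were lower, so the share of members is near the background. The median log2 ratio was 0.79 for the members and 0.88 for all 1847 miRNAs. Since ratios in these libraries were larger at low counts, each member was also placed among the miRNAs of its own abundance class, by mean count of both libraries. In the class from 100 to 1000 counts, 47.0% of 302 miRNAs were past 1.5-fold higher and the median log2 ratio was 0.53. Both members in it, miR-182-5p at 0.28 and miR-183-5p at 0.34, were below that median and not past the threshold, and 110 and 119 of the 302 had a lower ratio.

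In the class from 10 to 100 counts, 76.7% of 1350 miRNAs were past 1.5-fold higher, and so were all 4 members in it. The class median of the log2 ratio was 1.01, with miR-96-5p (0.69) and miR-96-3p (0.88) below it and miR-183-3p (1.36) and miR-182-3p (1.58) above it. Of the 1350, 396 had a lower ratio than miR-96-5p and 1094 a lower ratio than miR-182-3p. Over the 6 members, the share of the class with a lower ratio ran from 29.3% to 81.0%.

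**Figure D2:**
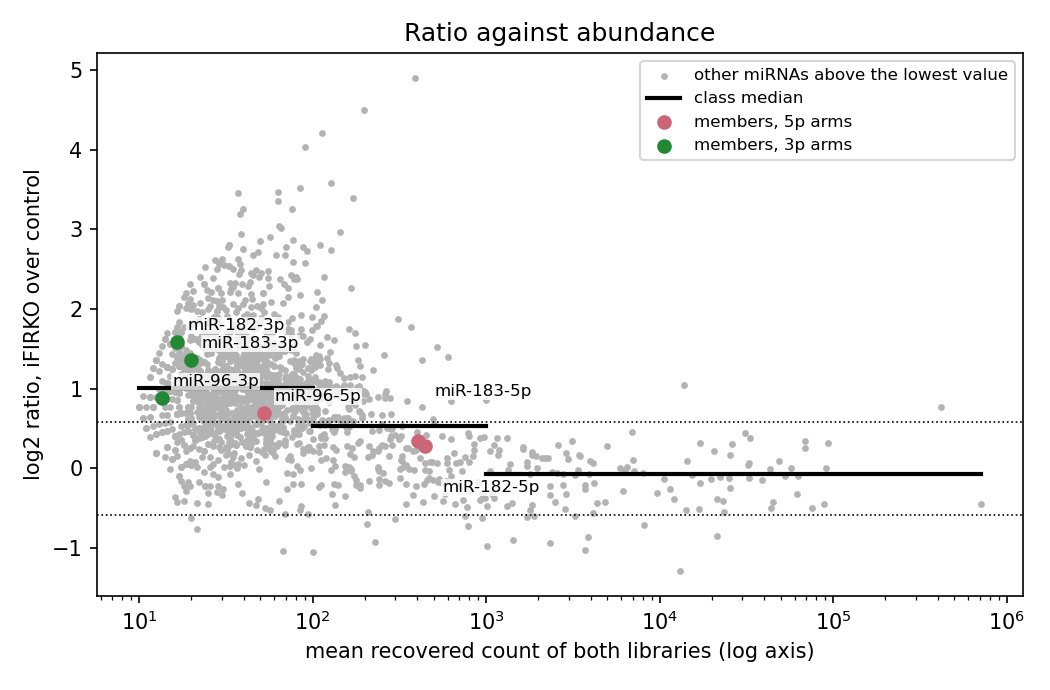
Log2 ratio of iFIRKO to control against the mean recovered count of both libraries (log axis) for each miRNA above the lowest value in both. Grey points are other miRNAs, red and green points are the 5p and 3p arms of the cluster, black lines are class medians and dotted lines mark 1.5-fold in either direction. The 5p arms of Mir182 and Mir183 fall below the class median of 0.53, and the 4 arms of lower count fall on either side of the class median of 1.01.

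The balance of arms was compared within each library. A ratio of 2 arms of 1 hairpin does not depend on a scaling with 1 factor per library. In Mir182 the 3p arm made up 2.25% of both arms in control (Clopper-Pearson interval 1.17 to 3.89) and 5.36% in iFIRKO (3.35 to 8.07). The odds of the 3p against the 5p arm were 2.46 times higher in iFIRKO (exact conditional interval 1.14 to 5.56). In Mir183 the 3p arm made up 3.33% (1.92 to 5.36) and 6.54% (4.23 to 9.57), with an odds ratio of 2.03 (1.02 to 4.15).

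Mir96 had the most even arms, with 19.4% in the 3p arm in control (interval 10.8 to 30.9) and 21.5% in iFIRKO (12.3 to 33.5). Its odds ratio was 1.14 (0.448 to 2.91), and a difference within these bounds was not detectable at this depth. Over the 3 hairpins together the 3p share was 3.79% in control (2.74 to 5.11) and 7.16% in iFIRKO (5.50 to 9.14), an odds ratio of 1.96 (1.28 to 3.02).

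A larger share of the less abundant arm in iFIRKO was common in these libraries. It was seen in 56.5% of 492 hairpins whose arms were both above the lowest value, and in 69.6% of the 138 among them in which 1 arm averaged 100 counts or more and the other fewer, as in Mir182 and Mir183. The median log2 odds ratio of these 138 was 0.34, against 1.30 for Mir182 and 1.02 for Mir183. Of the 138, 124 had a lower value than Mir182 and 114 a lower value than Mir183, while the interval of each taken singly, 0.19 to 2.47 and 0.02 to 2.05 on the log2 scale, includes the median. Mir96, whose arms both averaged under 100 counts, is not among the 138. Its log2 odds ratio was 0.19, and 265 of the 492 hairpins had a lower value. For the 3 hairpins of the cluster together the log2 odds ratio was 0.97, with an interval of 0.35 to 1.60. That value pools arms over hairpins and includes Mir96, so it is not comparable with the median of the 138. The difference of Mir182 and Mir183 toward the 3p arm was in the direction most of the 138 took.

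**Figure D3:**
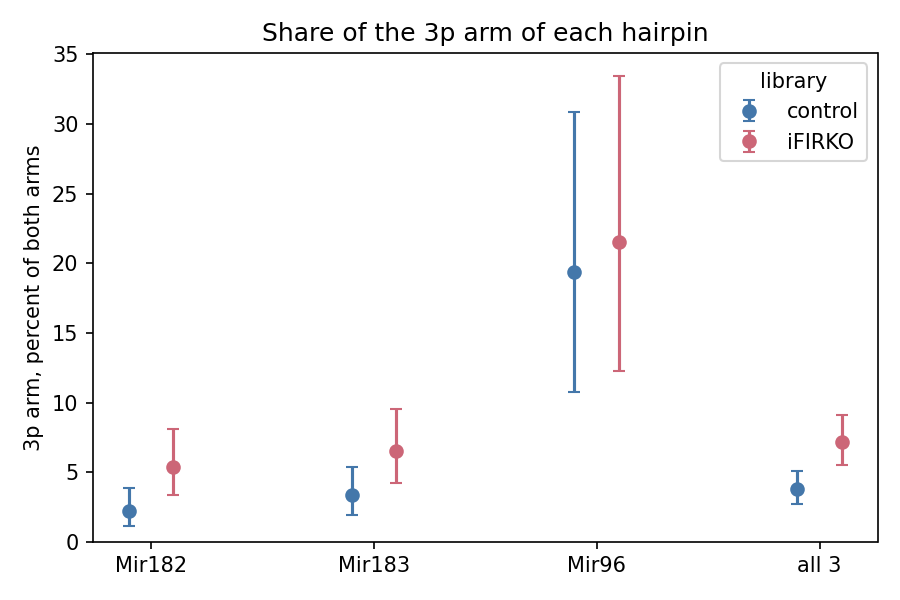
Share of the 3p arm among the counts of both arms for each hairpin and for the 3 together, in percent, in the control (blue) and iFIRKO (red) libraries, with Clopper-Pearson 95% intervals. The share is 2.25% and 5.36% for Mir182, 3.33% and 6.54% for Mir183, and near 20% with wide intervals in both libraries for Mir96 (19.4% and 21.5%).

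The proportions of the 3 guide arms to one another differed between the libraries by less than counting error. The ratio of miR-182-5p to miR-183-5p in iFIRKO was 0.961 times that in control (interval 0.789 to 1.17), the factor nearest to 1 among the pairs. For miR-182-5p to miR-96-5p this factor was 0.753 (0.492 to 1.15), and for miR-183-5p to miR-96-5p it was 0.783 (0.510 to 1.20). Their intervals reach down to about a 2-fold smaller ratio, since miR-96-5p had only 54 and 51 counts.

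The log2 ratios of the guide arms spanned 0.41, from 0.28 to 0.69. Hairpins within 10 kb of each other on 1 strand were grouped in the same way across the genome, and 17 groups had at least 3 hairpins with a countable arm. The median span of these groups was 1.27 on the log2 scale, and that of the 8 groups with exactly 3 hairpins was 0.77, from 0.10 to 1.33. The cluster had the third smallest span of all 17. Groups with fewer counts have wider spans from counting error alone, so the spans are given as a description.

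The sign of the small differences depended on how the libraries were scaled. Relative to miR-148a-3p, the reference miRNA of the study, the log2 ratio of miR-182-5p was 0.06 and that of miR-183-5p was 0.12, both close to 0. Scaling to the median of ratios gave 0.01 and 0.07. TMM scaling, which lowers every log2 ratio by 0.85, gave -0.57 for miR-182-5p, -0.52 for miR-183-5p and -0.16 for miR-96-5p, so that all 3 guide arms were lower in iFIRKO, while the 3p arms were at 0.73 for miR-182-3p, 0.50 for miR-183-3p and 0.03 for miR-96-3p. With TMM scaling 1 of the 6 members, miR-182-3p, was past 1.5-fold higher and 0 were lower, and over all miRNAs 21.0% were higher and 19.5% lower. Whether the guide arms differ in amount per vesicle between the genotypes therefore cannot be told from these libraries. The order of the members and the arm balance do not depend on a scaling that applies 1 factor to a library. Scaling by abundance class, given in the last section, does change the arm balance.

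**Figure D4:**
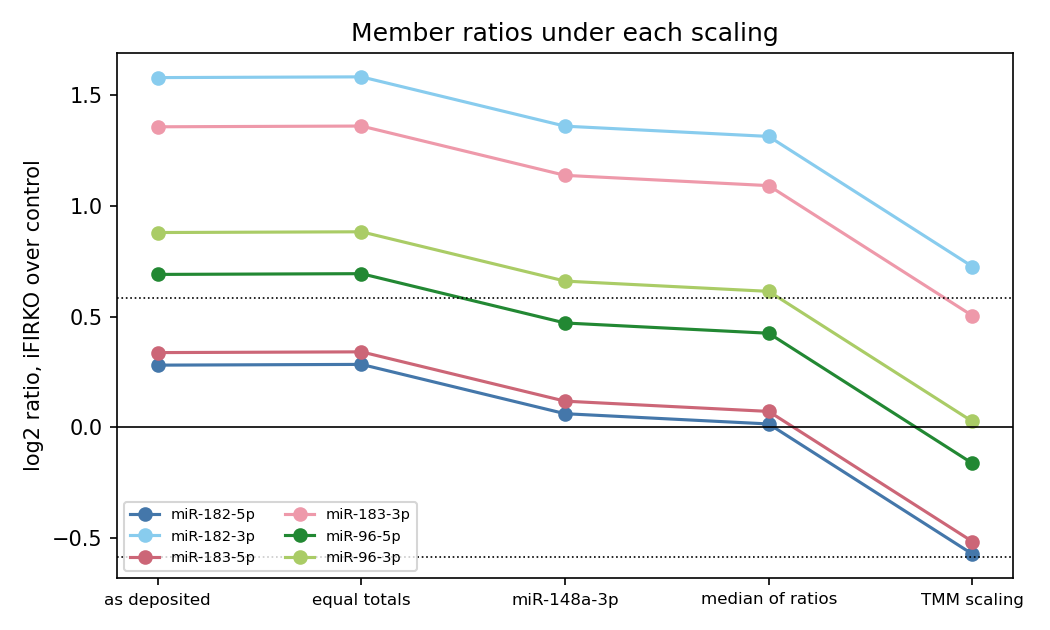
Log2 ratio of iFIRKO to control for each arm under the deposited scale and 4 other scalings. Lines join the values of 1 arm, and dotted lines mark 1.5-fold in either direction. The order of the arms stays the same, since a scaling moves all by 1 shift, and the 5p arms of Mir182 and Mir183 move from 0.28 and 0.34 to -0.57 and -0.52.

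The cluster was set beside 13 miRNAs known from epithelia, neuroendocrine cells and sensory or neural tissue. Among these 13, the library labelled iFIRKO had 5 higher and 8 lower as deposited, where 1627 of all 1847 miRNAs were higher. Past 1.5-fold, 1 of the 13 was higher (miR-124-3p, a neuronal miRNA, with 16 and 33 counts) and 0 were lower, against 66.3% and 3.03% over all miRNAs. The median log2 ratio was -0.08, against 0.88 over all miRNAs. Most miRNAs had lower counts than the majority of this list, and ratios were smaller at high counts. In the class with mean counts over 1000, which holds miR-203-3p, miR-205-5p, miR-7a-5p and miR-141-3p, 48 of 118 miRNAs were higher and the median was -0.07. With TMM scaling the median was -0.93. The 9 that averaged 100 counts or more had a median of -0.14 and a range from -0.38 (miR-7a-5p) to 0.13 (miR-375-3p, known from islets), and 0 of the 5 in the class from 100 to 1000 counts were past 1.5-fold higher, against 47.0% of that class. The log2 ratios of miR-182-5p and miR-183-5p lay above those of all 9. That place is ordinary for their class, since only 85 of its 302 miRNAs had a lower ratio than miR-375-3p, the highest of the 9. Of the list members with fewer counts, miR-124-3p (1.82) and miR-211-5p (0.50) lay above both arms. miR-9-5p (0.25) and miR-204-5p (-0.26) lay below both.

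The contrast with the 9 more abundant miRNAs was also taken as a ratio within each library, a comparison chosen after the values were seen. Such a ratio does not depend on a scaling with 1 factor per library. The sum of miR-182-5p and miR-183-5p was 986 counts in control and 714 in iFIRKO, and that of the epithelial miR-200 family (miR-200a-3p, miR-200b-3p, miR-200c-3p, miR-141-3p and miR-429-3p) was 4585 and 2276. The guide pair thus stood at 0.215 of the miR-200 family in control and at 0.314 in iFIRKO, a 1.46-fold larger proportion (interval 1.31 to 1.63). A larger proportion in iFIRKO was not particular to the pair. Of the 302 miRNAs in its class, 110 and 119 had a lower ratio than miR-182-5p and miR-183-5p. Most of that class thus had a larger increase against this family than the pair. Against the 9 miRNAs singly, the factor for the pair ranged from 1.13 to 1.61, and its interval lay above 1 for 8 of the 9. That each factor is above 1 follows from the log2 ratios of the pair, which lay above those of all 9. The 9 factors also share the counts of the pair, so they restate a single observation. The smallest factors were against miR-375-3p (interval 0.970 to 1.32) and miR-203-3p (1.01 to 1.27), the latter known from skin. The factor ranged from 1.13 to 1.58 against the 5 miRNAs of the pair's own class of 100 to 1000 counts, and from 1.13 to 1.61 against the 4 with a mean count over 1000 (miR-203-3p, miR-205-5p, miR-7a-5p and miR-141-3p).

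Few listed miRNAs have the seed of a member. The 1847 entries carry 1858 names, since some pool miRNAs, and 1596 names had a RefSeq mature sequence. Among these, 1 outside the cluster had bases 2 to 7 or 2 to 8 of a member. This was miR-3475-5p, which has the seed of miR-96-3p and was counted 19 times in control and 13 times in iFIRKO, giving a ratio of 1.17 (interval 0.531 to 2.50). Within the cluster, miR-182-5p and miR-96-5p have bases 2 to 7 in common. Together they had 576 counts in control and 422 in iFIRKO, of which miR-182-5p made up 90.6% and 87.9%.

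miRNAs with the most similar pair of levels were found by distance in log2 CPM over the 2 libraries, which describes level and ratio only. For miR-182-5p they were miR-1981-5p (508 and 396 counts, distance 0.10), miR-296-5p (554 and 338) and miR-28a-3p (590 and 364). For miR-183-5p they were miR-379-5p (446 and 357 counts, distance 0.08), miR-31-5p (468 and 321) and miR-100-5p (506 and 325). For miR-96-5p they were miR-6988-3p and miR-710, both with 55 and 51 counts, and miR-3082-5p (54 and 53).

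Sequence matches to the guide seeds were counted in genes of insulin signalling and in described targets, as context for what these vesicle miRNAs could pair with, since no mRNA was measured here. The longest annotated 3′ untranslated region (UTR) of each of 21020 protein-coding genes was searched on the sense strand for the complement of bases 2 to 8, which is TTGCCAA for miR-182-5p, GTGCCAA for miR-96-5p and GTGCCAT for miR-183-5p. A match was present in 10.9%, 7.93% and 8.82% of genes, respectively, and in 25.2%, 18.4% and 20.4% of the 5376 genes whose UTR had at least 2000 bases. Among Insr, Irs1, Irs2, Pik3r1, Akt1, Akt2, Foxo1, Foxo3 and Adcy6, 3 of 9 had a match for miR-182-5p, 3 for miR-96-5p and 4 for miR-183-5p. The list mixes described targets with pathway genes, so these shares do not measure a link to insulin signalling. All matches for miR-182-5p were in Foxo1, Foxo3 and Adcy6. Of the genes from Insr to Akt2, Insr matched miR-183-5p, Irs1 matched miR-183-5p and miR-96-5p, and the others had no match.

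Foxo1, a transcription factor that insulin restrains through Akt, and Adcy6, an adenylyl cyclase, were the genes on the list with a match for each of the 3 guides. Insr itself had 1 match for miR-183-5p. The Foxo1 matches are printed in capitals (GRCm38, plus strand), because those for miR-183-5p and miR-96-5p begin only 26 bases apart, at bases 234 and 260 of the UTR.

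Foxo1 match to miR-183-5p (chr3:52347200-52347222): ctgtagataaggactGTGCCATt

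Foxo1 match to miR-96-5p (chr3:52347226-52347248): aatcattacaatgaaGTGCCAAa

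Foxo1 match to miR-182-5p (chr3:52350867-52350889): gcagtgtgtttgctcTTGCCAAa

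The match to miR-182-5p begins at base 3901 of the UTR. Foxo3 had 2 matches to a whole seed, both to that of miR-182-5p. These, and the Foxo1 matches to miR-182-5p and miR-96-5p, contain TGCCAA, the complement of bases 2 to 7 of both guides. Matches to bases 2 to 7 alone were not searched. A match listed for miR-182-5p or miR-96-5p thus does not exclude pairing with the other of these guides. A match is a stretch of letters and says nothing of binding or repression in these mice.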

How the data were processed

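Total RNA of serum EVs was made into libraries with the QIAseq miRNA Library Kit and sequenced on the NextSeq500, and the reads were analysed by the authors on the GeneGlobe Data Analysis Center (mm10 per the submitters' notes). The aligner, the miRNA release and any use of molecular identifiers are not given in the sources used here. The deposited signal is 1 normalized value per mature miRNA. With a tolerance of 0.01 counts, 100% of values in each library were whole multiples of 1 constant, and counts were recovered from it, with depths of 3817902 and 2233498. No count model was fitted, since 1 library per group leaves no residual degrees of freedom.

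Ratios of iFIRKO to control were taken on the deposited scale, with Clopper-Pearson intervals of the share of iFIRKO counts among both, exact Poisson intervals for levels and exact conditional intervals for odds ratios (scipy 1.17.1). Reads may not be independent molecules, so intervals cover counting error only. The interval computation was tested on simulated data. TMM factors came from edgeR 4.0.16 in R 4.3.3.

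The members and lists were chosen with earlier results of these data known. Named were all 6 members, seed mates, the 3 nearest miRNAs in level to each 5p arm, and abundant members of the epithelial and sensory list. The members of that list with fewer counts, among them miR-124-3p, were named after their values were seen. Alternatives were filters at mean counts of 10 and 100, 4 scalings, 1 CPM added, a floor of 10 counts, a 2-fold threshold, sums without the 3p arms or miR-182-5p, and, chosen after seeing the data, scaling to the abundance class.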

Additional observations from a re-analysis of the deposited data

How the results depend on the processing

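Leaving out a library would empty a group. No paired analysis was possible because neither genotype was sequenced more than once. Equal totals, 1 CPM added and the floor of 10 counts left each member's log2 ratio and the cluster sum within counting error. The floor could change no member, since each had at least 12 counts. Equal totals moved the summed log2 ratio only from 0.382 to 0.385, so these settings say little of robustness. The summed log2 ratio of the cluster (0.38 as deposited) was 0.12 under median-of-ratios scaling, 0.16 relative to miR-148a-3p and -0.47 under TMM scaling, each a single shift of all miRNAs. It was 0.33 from 5p arms alone. The median of the members was -0.068 with TMM scaling, and miR-96-5p went to -0.16. Members past 1.5-fold higher fell from 4 to 1 with TMM scaling, to 0 of the 2 members averaging 100 counts or more, and to 2 at a 2-fold threshold. Of all 1847 miRNAs, 1225 were past 1.5-fold higher as deposited and 388 with TMM scaling, and 794 were past 2-fold higher. When only miRNAs averaging 100 counts or more were kept, 145 were past 1.5-fold higher. These come from the classes of 302 and 118 miRNAs, so most of the drop from 1225 reflects the smaller set. The 56 past 1.5-fold lower as deposited became 113 under median-of-ratios scaling, 102 relative to miR-148a-3p and 360 under TMM scaling. With the floor at 10 counts they were 22. In the smaller sets averaging 10 counts or more and 100 counts or more, 24 and 18 were lower. A setting chosen after seeing the data scaled each member to the summed count of its own abundance class. There miR-96-5p was at -0.37, miR-96-3p at -0.18, miR-182-5p at -0.09 and miR-183-5p at -0.04. miR-182-3p and miR-183-3p stayed above 0, at 0.52 and 0.30, so the arms of Mir182 and of Mir183 stood closer together than as deposited. Depth limits the 3p arms most, with 12 to 24 counts each.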
